A study of Mus musculus with 12 samples.

Results

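The T cell receptor complex and cytotoxic genes examined here are 10 genes of the 27179 in the deposited expression table, chosen by symbol: the CD3 chains Cd3d, Cd3e, Cd3g and Cd247, the coreceptor genes Cd4, Cd8a and Cd8b1, the kinase gene Lck, and the granzyme genes Gzma and Gzmb. RNA sequencing was done on full-thickness mouse colon cut out around an ink-marked injection of diphtheria toxin in the muscle layer, in a study of how enteric neurons return after birth. The control group (n = 5 libraries) had the genotype R26-iDTR, a toxin receptor at the Rosa26 locus that stays silent without Cre recombinase. The ablated group (n = 7 libraries) had the genotype BAF53b-Cre::R26-iDTR, in which the promoter of the neuronal gene Actl6b (BAF53b) drives Cre, so that neurons carry the receptor and the toxin acts on them. Mice of both groups had a laparotomy and 4 µL of toxin at 0.33 ng/µL with 10% India ink, so all libraries come from operated and injected colon, and there is no uninjured group. Control mice were littermates. The labels used here give no age, sex or time after injection, and number the libraries without tying each to a separate animal. The p-values below therefore refer to the spread among these 12 libraries, part of which may be technical.

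The T cell receptor recognises peptides held by MHC molecules but has almost no cytoplasmic part of its own. The CD3 chains, including the zeta chain made from Cd247, carry the signal into the cell, and the kinase Lck, held by the CD4 and CD8 coreceptors, phosphorylates them. Granzymes are proteases that cytotoxic T cells and natural killer cells release into target cells through perforin pores. In the gut, T cells lie in the lamina propria, in lymphoid follicles and between epithelial cells. Cd4 is also transcribed in some macrophages and dendritic cells, Cd8a in some dendritic cells, and Lck, Cd247 and the granzymes in natural killer cells.

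Cd3g, Cd3d and Cd3e lie side by side on mouse chromosome 9 (GENCODE M21 on GRCm38, the assembly also called mm10). Cd3g (44969572 to 44980431, minus strand) and Cd3d (44981786 to 44987339, plus strand) start 1355 bases apart and run away from each other, and Cd3e (44998740 to 45009627, minus strand) ends 11401 bases from the end of Cd3d. On chromosome 6, Cd8b1 (71322788 to 71337494) and Cd8a (71373427 to 71379173) lie on the plus strand, 35933 bases apart, and Cd4 lies at 124864692 to 124888221. The remaining members share a chromosome with no other member: Lck is on chromosome 4 (129548344 to 129573641), Cd247 on chromosome 1 (165788681 to 165877277), Gzma on chromosome 13 (113093825 to 113100981) and Gzmb on chromosome 14 (56258838 to 56262260). The sequence before the start is shown for the neighbours Cd3d and Cd3g and for Lck, the member with most reads, because these are the genes whose values are compared most closely below. Each is from RefSeq (GRCm38.p6), reads 5′ to 3′ along the gene's strand and covers chr9:44981536-44981768 (plus strand) for Cd3d, chr9:44980432-44980681 (minus strand) for Cd3g and chr4:129573642-129573891 (minus strand) for Lck. Capitals mark the words TGTGGT, the core bound by RUNX factors, and CAGGAA, a core bound by ETS factors, on either strand (ACCACA and TTCCTG in reverse).
Cd3d: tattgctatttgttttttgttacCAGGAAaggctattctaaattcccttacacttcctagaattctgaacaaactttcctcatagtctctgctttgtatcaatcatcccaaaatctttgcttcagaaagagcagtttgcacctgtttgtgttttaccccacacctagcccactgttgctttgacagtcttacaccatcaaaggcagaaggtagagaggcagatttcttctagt
Cd3g: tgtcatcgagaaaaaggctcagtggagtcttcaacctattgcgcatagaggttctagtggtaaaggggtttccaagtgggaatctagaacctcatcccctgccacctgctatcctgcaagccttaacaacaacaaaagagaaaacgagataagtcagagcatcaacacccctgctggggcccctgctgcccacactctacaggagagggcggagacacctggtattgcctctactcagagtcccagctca
Lck: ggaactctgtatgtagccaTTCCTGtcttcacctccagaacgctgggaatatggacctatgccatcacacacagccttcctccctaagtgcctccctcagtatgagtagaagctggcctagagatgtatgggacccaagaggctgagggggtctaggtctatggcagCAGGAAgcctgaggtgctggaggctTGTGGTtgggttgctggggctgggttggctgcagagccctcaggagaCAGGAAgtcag

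The windows of Cd3d and Cd3g share no capital word: the Cd3d window held 1 CAGGAA and the Cd3g window held neither word. The Lck window shown, at the first of 2 RefSeq starts, held CAGGAA 3 times, once in reverse, and TGTGGT once. The window of the other start (chr4:129558373-129558622, minus strand) held CAGGAA once and no TGTGGT. Among the other members with a RefSeq promoter, Gzmb held TGTGGT 2 times and Gzma once, both without CAGGAA, Cd3e and Cd247 held CAGGAA once, and Cd8a held neither. The match of Cd3e lies at the end of its window, inside the gene as placed by GENCODE and not before its start. The words are short and common: of 32851 promoter windows of 250 bases, 14.0% held TGTGGT and 25.7% held CAGGAA. A match is a stretch of letters and no measured binding site.

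The libraries held 13.4 to 26.9 M reads, recovered from the deposited values. Calb2, which encodes the neuronal calcium-binding protein calretinin, followed the labels. It had a mean of 24.4 ± 10.1 TPM in control (SD, n = 5) and 0.537 ± 0.537 TPM in ablated libraries (SD, n = 7). TPM is a share of the library per transcript length. Neuronal Uchl1 was also lower, at a mean of 41.8 TPM in control and 6.93 TPM in ablated libraries (limma adjusted p = 0.000406). Actl6b was low in both groups, at 0.599 to 1.43 TPM in control and 0.155 to 0.750 TPM in ablated libraries. Its groups overlapped and it was not called (limma adjusted p = 0.222). Epithelial Epcam and smooth muscle Myh11 were present in all 12 libraries, as full-thickness colon should hold. Numbering the libraries as the labels do, 2 ablated libraries stood apart for the members. Ablated 3 had the highest level of 8 of the 10 members, against 14.4% of all genes tested, and was among the highest 2 libraries for all 10. Ablated 1 was the shallowest library, with mitochondrial genes at 25.6% of its TPM against 5.20% to 14.2% in the other 11, and had the highest Cd3e. The fold change of every member is therefore given with and without ablated 3, and those of Cd3e and Lck also without ablated 1.

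All 10 members were detected at low levels, and rested on few reads: Cd3g, for example, had 6 to 89 reads per library. Lck was highest, at a mean of 3.19 ± 1.79 TPM (SD, n = 12), then Cd3g at 2.46 ± 1.76, Cd4 at 1.45 ± 0.713, Cd3d at 1.33 ± 1.19, Cd3e at 1.07 ± 0.951 and Gzma at 0.866 ± 0.796 TPM. Gzmb (0.573 ± 0.501), Cd8a (0.571 ± 0.427), Cd8b1 (0.339 ± 0.286) and Cd247 (0.286 ± 0.209) followed. Lck lay above Cd3g in 10 of 12 libraries and Cd3g above Cd4 in 11, whereas from Cd4 down each gene lay above the next in only 6 to 9 of 12, with SDs larger than the steps between means. The reads summed over all libraries ran from 66 for Cd8b1 to 1008 for Lck. Cd247 has a further uncertainty: 3007 of its exon bases overlap Pou2f1 on the opposite strand, and the strand setting of the counting is not given in the sources used here.

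**Figure D1:**
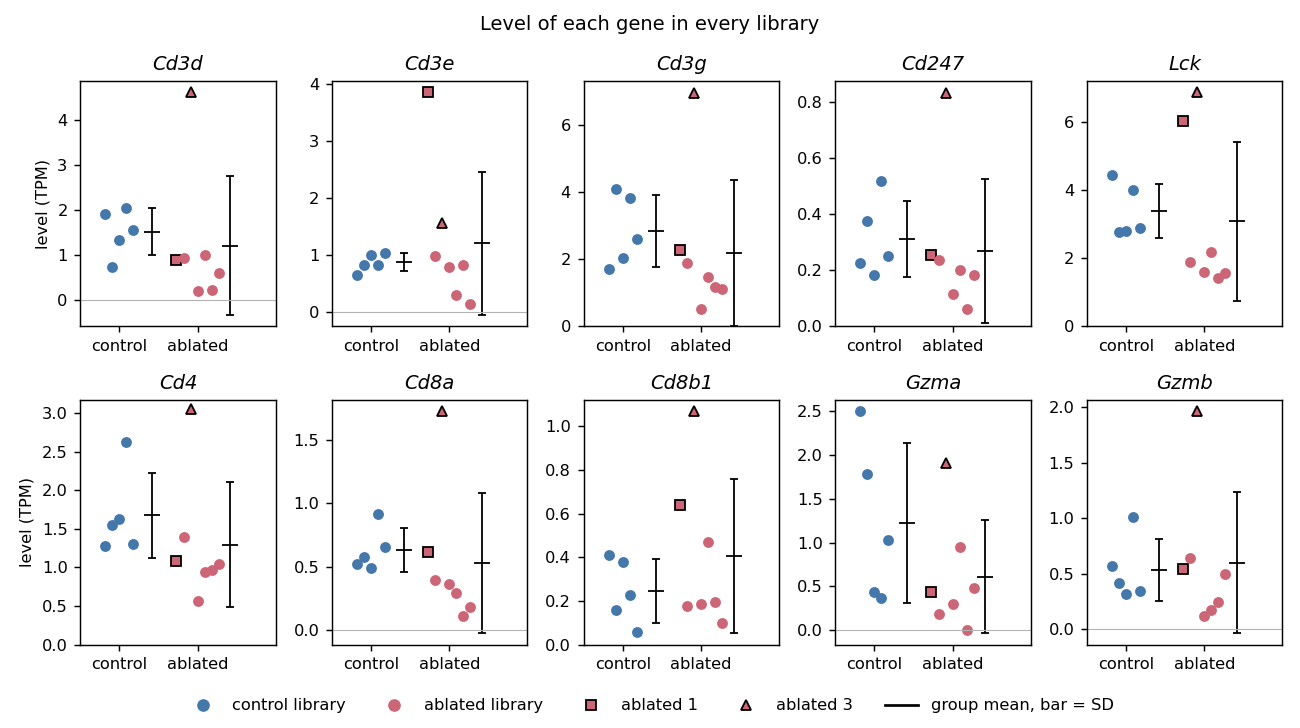
Level in TPM of each of the 10 genes (a panel each, with its own vertical scale) in the 5 control and 7 ablated libraries; each point is a library, and the bar beside a group is its mean and SD. Ablated 3 (triangle) is the highest point in 8 panels, Cd3e is highest in ablated 1 (square) and Gzma in control 1, and the groups overlap in every panel.

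The gamma chain gene Cd3g, which encodes a partner of CD3 epsilon in the receptor complex, was at 1.70, 4.09, 2.01, 3.81 and 2.58 TPM in control 1 to 5. In the ablated libraries it was at 2.27, 1.87, 6.95, 0.511, 1.46, 1.16 and 1.10 TPM in ablated 1 to 7. Ablated 4 to 7 lay below every control and ablated 3 above every control, so the groups overlapped. The 89 reads behind the value of ablated 3 give an exact 95% Poisson interval of 5.58 to 8.55 TPM, which covers counting error only and lies above all other libraries. The log2 fold change, ablated minus control on the log2(TPM + 0.5) scale, was -0.54 (95% interval -1.40 to 0.33, limma adjusted p = 0.686), and -0.83 (-1.43 to -0.22, adjusted p = 0.216) without ablated 3. Less of such a transcript in bulk tissue cannot be told apart from fewer cells that make it.

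Cd3d, the delta chain that also pairs with CD3 epsilon, was at 1.92, 0.730, 1.32, 2.04 and 1.55 TPM in control 1 to 5. In ablated 1 to 7 it was at 0.873, 0.936, 4.62, 0.197, 0.9996, 0.210 and 0.582 TPM. Ablated 3 was again above all controls, and ablated 4, 6 and 7 lay below them all, with 3, 4 and 11 reads. Between the groups the log2 fold change was -0.53 (-1.44 to 0.38, limma adjusted p = 0.713), and -0.85 (-1.44 to -0.26, adjusted p = 0.185) without ablated 3.

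Cd3e, which encodes the epsilon chain shared by both CD3 pairs, had a different pattern. The controls lay close together, at 0.645, 0.832, 1.01, 0.832 and 1.03 TPM. The ablated libraries spread from 0.147 to 3.86 TPM: ablated 1 to 7 were at 3.86, 0.982, 1.56, 0.789, 0.289, 0.825 and 0.147 TPM. The highest was ablated 1, where 43 reads gave 3.86 TPM (exact 95% Poisson interval 2.80 to 5.20). In that library Cd3g and Cd3d were within the range of the controls. The ratio of Cd3e to Cd3g, computed after the values were seen, was therefore 1.70 in ablated 1, against 0.204 to 0.501 in the controls and 0.224 in ablated 3; ablated 4 also had a high ratio, 1.54, on 13 and 6 reads. An antisense gene model, Gm48719, shares 135 exon bases with Cd3e and is not among the genes analysed. Whether the mitochondrial share or depth of ablated 1 plays a part was not tested. The log2 fold change of Cd3e was 0.06 (-0.76 to 0.88, limma adjusted p = 0.982), and -0.21 (-0.80 to 0.38, adjusted p = 0.754) without ablated 1. Without ablated 3 it was -0.031 (-0.89 to 0.83, adjusted p = 0.990).

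**Figure D2:**
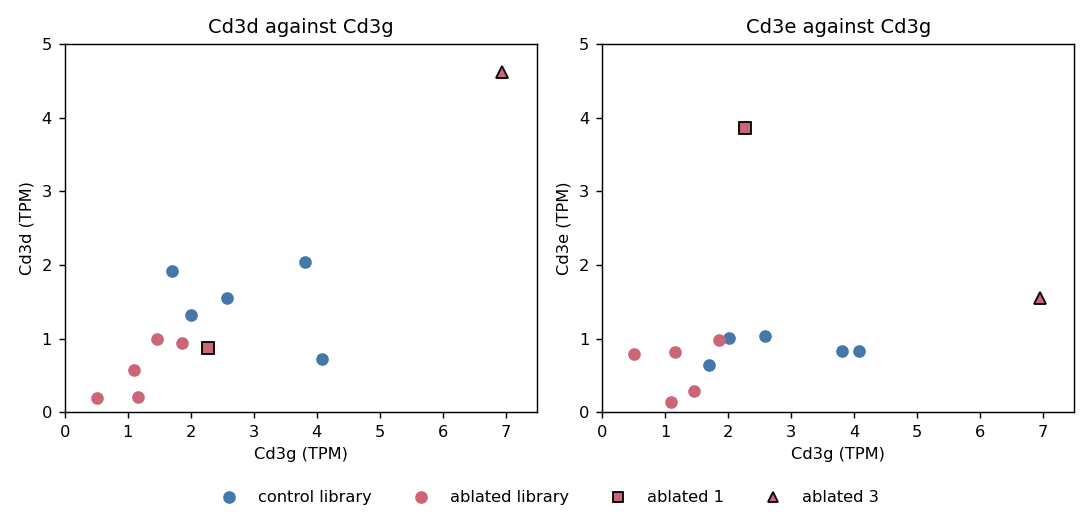
TPM of Cd3d (left) and Cd3e (right) against Cd3g in the 12 libraries, a point each. Ablated 3 is high for Cd3d and Cd3g together (4.62 and 6.95 TPM), whereas ablated 1 is high for Cd3e alone (3.86 TPM, with Cd3g at 2.27 TPM).

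Cd247, the zeta chain with most of the receptor's signalling motifs, was below the minimum for testing (0.5 TPM in at least 5 libraries). Its controls were at 0.226, 0.373, 0.182, 0.519 and 0.251 TPM. Its ablated libraries had a lowest value of 0.0606, a median of 0.199 and a highest of 0.833 TPM, the last in ablated 3. All ablated libraries but ablated 3 lay below the control mean, within or below the range of the controls. A fit with no minimum, which called 1.53% of its 22842 genes and neither Cd247 nor Cd8b1, gave a log2 fold change of -0.12 (-0.52 to 0.29, limma adjusted p = 0.891). Without ablated 3 the value was -0.26 (-0.51 to -0.0026, adjusted p = 0.435).

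The kinase gene Lck, with the most reads, was at 4.44, 2.76, 2.79, 3.98 and 2.87 TPM in control 1 to 5. It was at 6.01, 1.88, 6.88, 1.59, 2.17, 1.40 and 1.56 TPM in ablated 1 to 7. The ablated libraries fell on either side of the controls: ablated 1 and 3 lay above all 5 and the other 5 below all 5. With all libraries the log2 fold change was -0.32 (-1.08 to 0.45, limma adjusted p = 0.832). It was -0.50 (adjusted p = 0.477) without ablated 1 and -0.53 (adjusted p = 0.537) without ablated 3. Without both, a pair chosen after the data were seen and because they were the high ones, it was -0.79 (-1.15 to -0.43). The limma adjusted p was 0.0357, where 2.02% of all genes were called. Members were called only without this pair, and 1 was also called there when the minimum was applied anew to the libraries left. Leaving out the highest libraries of a group lowers its mean by construction.

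Cd4, the coreceptor gene of helper and regulatory T cells, was at 1.27, 1.54, 1.63, 2.62 and 1.31 TPM in control 1 to 5. The ablated libraries had a lowest value of 0.563, a median of 1.05 and a highest of 3.05 TPM. Of these 7, 5 lay below every control, ablated 2 lay within the range of the controls and ablated 3 above it. Its log2 fold change was -0.34 (-0.91 to 0.22, limma adjusted p = 0.693), and -0.52 (-0.95 to -0.10, adjusted p = 0.271) without ablated 3.

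Cd8a, which encodes the alpha chain found in both forms of the CD8 coreceptor, was at 0.518, 0.572, 0.487, 0.916 and 0.659 TPM in the controls. The ablated libraries had a lowest value of 0.111, a median of 0.362 and a highest of 1.74 TPM. Ablated 3 was above all controls and ablated 1 within their range, and the other 5 lay below. The log2 fold change was -0.26 (-0.86 to 0.35, limma adjusted p = 0.825), and -0.47 (-0.87 to -0.06, adjusted p = 0.323) without ablated 3.

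Cd8b1, whose beta chain pairs with CD8 alpha on conventional cytotoxic T cells, had 66 reads in all and was below the minimum for testing. Its controls were at 0.409, 0.158, 0.377, 0.225 and 0.0583 TPM, and its ablated libraries had a lowest value of 0.0993, a median of 0.197 and a highest of 1.07 TPM. No ablated library lay below the lowest control, and 3 lay above the highest. The lowest control, control 5 at 0.0583 TPM, rests on 1 read, so hardly any lower value could have been seen. The contrast with Cd4 and Cd8a, which had ablated libraries below every control, therefore cannot be told apart from this limit of counting. The fit with no minimum gave 0.22 (-0.29 to 0.73, limma adjusted p = 0.843), and 0.075 (-0.34 to 0.49, adjusted p = 0.923) without ablated 3. The ratio of Cd8b1 to Cd8a was 0.0884 to 0.789 in the controls (median 0.276) and 0.442 to 1.77 in the ablated libraries (median 0.618), so the ranges overlapped, on 1 to 19 reads of Cd8b1 per library. Cd4 exceeded Cd8a in all 12 libraries, by 1.98 to 3.34 times in controls and 1.56 to 8.70 times in ablated libraries. The ratio of Cd4 to Cd3e ran from 1.26 to 3.16 in controls and from 0.281 to 7.11 in ablated libraries, its lowest value in ablated 1.

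Gzma, a tryptase-like granzyme, varied widely among controls, at 2.51, 1.79, 0.434, 0.363 and 1.03 TPM. In ablated 1 to 7 it was at 0.441, 0.189, 1.91, 0.298, 0.946, 0 and 0.480 TPM. It is the member whose highest value was in a control, and no ablated library exceeded that. Ablated 6 had no read. Taking 3 reads as the most that a count of 0 allows, its level could be up to 0.238 TPM, and the exact 95% Poisson interval used for the other values ends at 0.293 TPM. Its log2 fold change was -0.64 (-1.52 to 0.23, limma adjusted p = 0.612), and -0.86 (-1.64 to -0.07, adjusted p = 0.354) without ablated 3.

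Gzmb, which cleaves after aspartate and activates caspases in target cells, was at 0.572, 0.421, 0.323, 1.01 and 0.349 TPM in the controls. The ablated libraries had a lowest value of 0.123, a median of 0.496 and a highest of 1.97 TPM. Ablated 3 was the only library of its group above all controls, and 3 lay below them all. The log2 fold change was -0.03 (-0.70 to 0.65, limma adjusted p = 0.991), and -0.25 (-0.74 to 0.24, adjusted p = 0.757) without ablated 3. The granzymes did not keep a fixed proportion: Gzmb to Gzma was 0.228 to 2.79 in controls and 0.186 to 3.41 in the 6 ablated libraries with reads of both.

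Of the 10 members, 8 passed the minimum and were tested, and limma on log2(TPM + 0.5) called 0 of them at an adjusted p under 0.05, where 1.43% of the 16164 genes tested were called. At an unadjusted p under 0.05 the count was also 0, against 11.8% of all genes, and voom on the recovered reads called 0. In no member were the groups without overlap, which held for 2.88% of genes. The fold changes of 7 of the 8 tested members were negative, against 44.3% of all genes, with a median of -0.33 against 0.03 over all genes; with quantile normalization Gzmb was positive, at 0.12. The intervals were wide, so that for Cd3g any log2 fold change from -1.40 to 0.33 lies within the error.

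Without ablated 3, all 8 tested members had negative fold changes (49.2% of all genes), with a median of -0.53 against 0.00 over all genes. None of the 8 was called (1.51% of genes), while 5 had an unadjusted p under 0.05, all lower: Cd3d, Cd3g, Cd4, Cd8a and Gzma. Over all genes, 12.1% reached that p in either direction and 6.20% in the lower one. In no member were the groups without overlap (3.69% of genes). Ablated 3 was the highest library for most members, against 14.4% of all genes tested, so leaving it out lowers the ablated means by construction. Leaving it out also narrows the spread of most members, which bears on their p-values. The counts of negative fold changes and of low p-values given here therefore cannot be weighed against the shares over all genes.

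**Figure D3:**
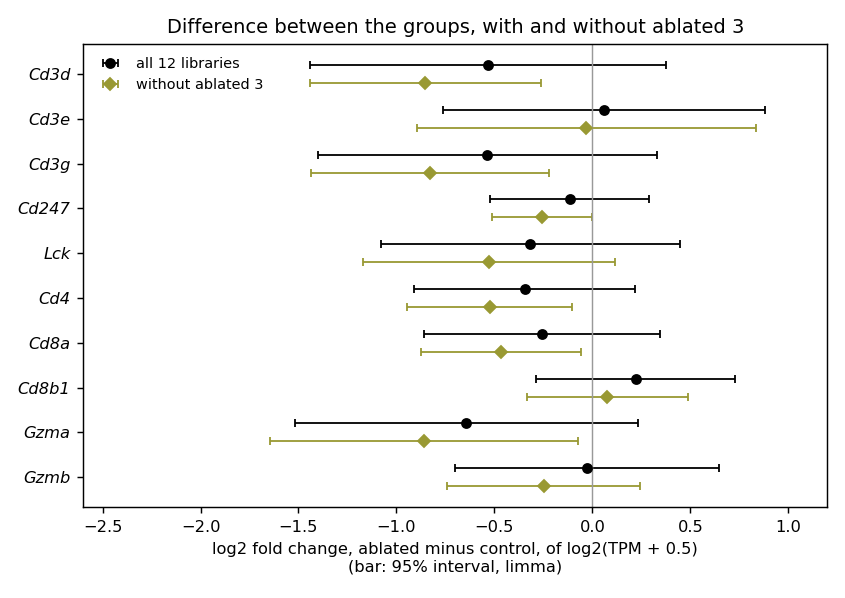
Log2 fold change of each gene, ablated minus control on the log2(TPM + 0.5) scale, with its 95% interval from limma, for all 12 libraries (circles) and without ablated 3 (diamonds). With all libraries every interval includes 0, and without ablated 3 those of Cd3d, Cd3g, Cd247, Cd4, Cd8a and Gzma lie below 0, although none of these passed after adjustment.

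The 10 members were also summed by library, a sum to which Lck and Cd3g, with the highest mean levels, add most. The sum was 10.6 to 16.3 TPM in the 5 controls. In ablated 1 to 7 it was 16.6, 8.70, 30.6, 4.73, 7.94, 5.17 and 5.87 TPM. Hence 5 of the 7 ablated libraries lay below every control, and ablated 1 and 3 above every control, ablated 1 by a small margin. Lck alone divided the libraries in the same way. In ablated 1 the largest parts of the sum were Lck (6.01 TPM) and Cd3e (3.86 TPM), so it does not place the members there jointly above the controls. Ablated 4, 6 and 7 were each among the lowest 2 libraries for 5 members.

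Each of the other 9 members was set against Cd3g within groups. With the group mean removed from log2(TPM + 0.5), Cd247 followed Cd3g over the 12 libraries with Pearson r = 0.920 (permutation p = 0.00012) and Spearman rho = 0.909 (permutation p = 0.00012), each with an adjusted p of 0.00108 over 9 relations. Without the 2 libraries farthest in Cd3g, ablated 3 and 4, r was 0.821. For Cd8a, r was 0.840 (permutation p = 0.00254, adjusted 0.00572) and rho 0.734 (permutation p = 0.00863, adjusted 0.0259), and r stayed at 0.749 without those libraries. Cd3d, the neighbour of Cd3g, had r = 0.773 (permutation p = 0.00924, adjusted 0.0139) and rho = 0.469 (permutation p = 0.126, adjusted 0.162), and r = 0.10 without them, so its relation rests on those libraries. The same held for Cd8b1, with r = 0.610 (permutation p = 0.0359, adjusted 0.0462) and rho = 0.350 (permutation p = 0.266, adjusted 0.299), falling to r = 0.062. For Lck, r was 0.719 (permutation p = 0.00854, adjusted 0.0139) and rho 0.517 (permutation p = 0.0877, adjusted 0.132), with r = 0.398 without those libraries. For Gzmb, r was 0.842 (permutation p = 0.00153, adjusted 0.00459) and rho 0.587 (permutation p = 0.049, adjusted 0.0882), with r = 0.443 without them. Cd4 had r = 0.895 (permutation p = 0.00035, adjusted 0.00158) and rho = 0.776 (permutation p = 0.00452, adjusted 0.0203), with r = 0.574 without them. Cd3e and Gzma did not pass by either measure after adjustment: r was 0.442 (permutation p = 0.15, adjusted 0.157) and rho 0.657 (permutation p = 0.0231, adjusted 0.052) for Cd3e. For Gzma, r was 0.436 (permutation p = 0.157, adjusted 0.157) and rho 0.210 (permutation p = 0.513, adjusted 0.513). Without those libraries r was 0.498 for Cd3e and -0.069 for Gzma. Cd3g was taken as the reference after the values were seen, as the CD3 chain with the most reads, and all relations share the libraries and their depth.

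By correlation with the mean of the CD3 chains within groups, over 12 libraries and given as a description, the most similar tested genes outside the members were Fcgr4 (r = 0.965), Wdr91 (0.953), Plcb2 (0.941), Clec9a (0.941), Il10ra (0.933), Apoe (0.930), Unc93b1 (0.929) and Septin1 (0.926). Fcgr4 encodes a receptor for immunoglobulin G on myeloid cells, Clec9a a receptor of cross-presenting dendritic cells, and Il10ra a chain of the interleukin-10 receptor. Without the 2 libraries farthest in that mean, ablated 3 and ablated 1, r ran from 0.811 for Il10ra to 0.912 for Plcb2. These 8 genes were high in ablated 3, which follows from their selection, because the CD3 chains were high there too. Fcgr4, for example, was at 15.0 TPM there, with 3.58 to 7.01 TPM in the controls. None of the 8 was called, with adjusted p from limma between 0.602 for Unc93b1 and 0.970 for Fcgr4.

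The constant regions of the T cell receptor itself gave no call. Of 7 genes in that list 4 were found by symbol and tested, 0 were called, all 4 had negative fold changes and the median was -0.66. Trdc, the constant region of the delta chain of gamma-delta T cells, was at 1.45 ± 0.595 TPM in control (SD, n = 5) and 0.857 ± 0.655 in ablated libraries (SD, n = 7), a log2 fold change of -0.60 (limma adjusted p = 0.522). Trbc1 and Trbc2 are near-identical beta chain copies between which reads may be split, so their values are uncertain: their log2 fold changes were -0.93 (adjusted p = 0.591) and -0.71 (adjusted p = 0.622). The 4 tested genes summed to 15.1 to 27.6 TPM in controls and 3.77 to 41.7 TPM in ablated libraries, the highest again in ablated 3.

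Of the 30 genes of receptor signalling and costimulation, 17 were tested and 0 called, with 13 negative and a median of -0.18. The smallest p-values belonged to the inhibitory receptor gene Tigit (-0.41, limma adjusted p = 0.498), the adaptor gene Skap1 (-0.41, adjusted p = 0.567) and the kinase gene Prkcq (-0.44, adjusted p = 0.625). Skap1 lay below every control in 6 of 7 ablated libraries and above them in ablated 3.

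Genes of T cell fate, homing and cytokine receptors gave 0 calls among 18 tested of 24, with 14 negative and a median of -0.13. Tcf7, a factor of naive and memory T cells, had a log2 fold change of -0.59 (adjusted p = 0.312), and Bcl11b, a factor that maintains T cell identity, one of -0.39 (adjusted p = 0.464).

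Other cytotoxic effectors and natural killer genes did not pass either. Of 16 effector genes 12 were tested, 0 were called and 9 were negative, with a median of -0.18. Nkg7, a protein of cytotoxic granules, was at 1.69 ± 0.656 TPM in control (SD, n = 5) and 1.31 ± 2.04 in ablated libraries (SD, n = 7), but 0.546 ± 0.285 TPM without ablated 3. Its log2 fold change was -0.69 (limma adjusted p = 0.651). Srgn, a granule proteoglycan of many leukocytes, was at -0.48 (adjusted p = 0.762), and Serpinb9, an inhibitor of granzyme B, at -0.21 (adjusted p = 0.865). Of 16 natural killer and innate lymphoid genes 10 were tested and 0 called, with 9 negative and a median of -0.19. Klrd1, the CD94 receptor chain, lay below every control in 6 ablated libraries and above them in ablated 3 (-0.68, adjusted p = 0.509). Klrb1b (-0.45, adjusted p = 0.629) and Klra7 (-0.45, adjusted p = 0.626), receptors of gene families with similar members between which reads may be split, were uncertain for that reason.

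Markers of other immune cells moved with the members in some libraries. Among 18 tested macrophage, monocyte and dendritic cell genes, 13 were highest in ablated 3 and 0 were called (median -0.06). These 18 tested genes, of 21 in the list, summed to 672 to 1106 TPM in controls and 323 to 2103 TPM in ablated libraries. The sum was 2103 TPM in ablated 3 and at most 971 TPM in the other ablated libraries. Lyz2, the lysozyme of myeloid cells, was at 1574 TPM in ablated 3 against 395 to 722 TPM in controls (log2 fold change over all libraries -0.54, limma adjusted p = 0.765). Cd163, a scavenger receptor of tissue macrophages, was at -0.40 (adjusted p = 0.481) and the monocyte gene Ly6c2 at -1.10 (adjusted p = 0.528). Of the list's genes, none was at 0 in all libraries. The part of myeloid cells in the values of ablated 3 was not tested.

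B cell and follicle genes had a lower median than the T cell lists, -0.69, with 16 of 17 tested genes negative and 0 called. Cd79a, a signalling chain of the B cell receptor, was at 14.1 ± 12.1 TPM in control (SD, n = 5) and 4.15 ± 3.95 in ablated libraries (SD, n = 7), a log2 fold change of -1.62 (limma adjusted p = 0.174, and 0.0439 without ablated 3). Ms4a1, which encodes CD20, was at -1.53 (adjusted p = 0.203, and 0.0479 without ablated 3), and Cxcl13, the chemokine that draws B cells into follicles, at -0.94 (adjusted p = 0.135). The 17 tested genes summed to 51.9 to 218 TPM in controls and 24.0 to 123 TPM in ablated libraries. None of the 20 genes of the list was at 0 throughout. With the B cell and follicle score as a covariate, the fold changes of Cd3d, Cd247, Cd4, Cd8a, Lck and Gzmb turned to between 0.038 and 0.46, none of them called; whether follicles in the pieces of tissue play a part was not tested.

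Plasma cell genes gave the only calls among the 11 lists: 2 of 11 were lower and 0 higher, with a median of -1.26. Over all genes tested, 1.01% were called lower and 0.421% higher. Tnfrsf17, the survival receptor BCMA, fell from 4.15 ± 0.746 TPM in control (SD, n = 5) to 1.87 ± 0.681 in ablated libraries (SD, n = 7), a log2 fold change of -1.01 (limma adjusted p = 0.0407). Iglc3, an immunoglobulin lambda constant region with near-identical copies and therefore uncertain, had a log2 fold change of -1.94 (adjusted p = 0.0476). Leaving out a library ended the call of Tnfrsf17 for 8 of the 12 libraries and that of Iglc3 for 10, and with no minimum 0 of the list were called. No tested plasma cell gene was highest in ablated 3.

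The lists of mast cells (0 of 7 called, median -0.15), epithelium (0 of 14, median 0.14) and smooth muscle (0 of 12, median 0.03) had no call. Their genes with the smallest p-values were Tpsb2 (-0.52, limma adjusted p = 0.478), Mcpt4 (-0.57, adjusted p = 0.601) and Mcpt1 (0.32, adjusted p = 0.704) for mast cells. For epithelium they were Car1 (1.27, adjusted p = 0.123), Slc26a3 (0.42, adjusted p = 0.288) and Cdx1 (-0.24, adjusted p = 0.493), and for smooth muscle Actg2 (0.65, adjusted p = 0.454), Cnn1 (0.43, adjusted p = 0.608) and Des (0.41, adjusted p = 0.660). Without ablated 1 the Car1 log2 fold change was 1.49 and passed (limma adjusted p = 0.0164). No epithelial or smooth muscle gene was highest in ablated 3. The smooth muscle genes summed to 8605 to 13266 TPM in controls and 8524 to 27281 TPM in ablated libraries. For the epithelial genes the sums were 13382 to 16593 TPM and 12192 to 21358 TPM. Whether the make-up of the pieces of tissue plays a part in the values of the members was not tested.

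**Figure D4:**
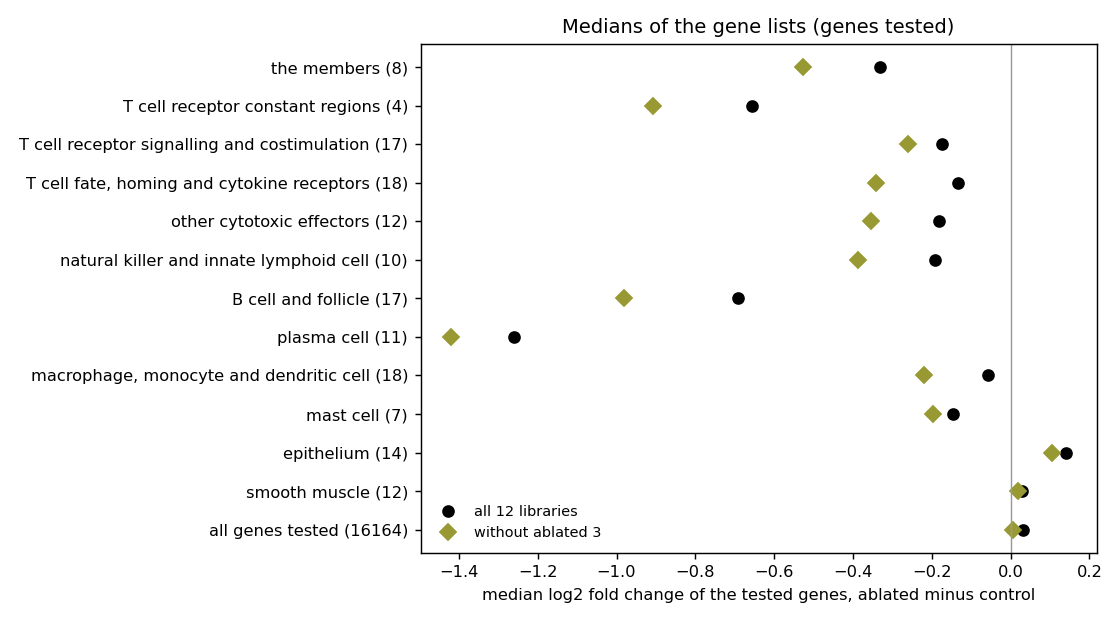
Median log2 fold change, ablated minus control, of the tested genes of the members and of each list (number of genes tested in brackets), for all 12 libraries (circles) and without ablated 3 (diamonds). The lists of T cell, cytotoxic and natural killer genes have medians from -0.66 to -0.13, while all genes tested lie at 0.03 and 0.00. Without ablated 3 the median of every list shown is lower. Ablated 3 is the highest library for 55.6% to 75.0% of the tested genes in each T cell, cytotoxic and natural killer list. Leaving it out therefore lowers their medians by construction.

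The authors' deposited table of their own comparison also lists no member with a false discovery rate under 0.05, a level that 1.13% of its 27179 genes reach. Its log2 fold changes, whose direction is not stated, run from -1.05 for Gzma to 0.65 for Cd8b1 in the authors' deposited table. In 9 of the 10 members the sign in the authors' deposited table equals that of the fit given here; the other is Gzmb.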

How the data were processed

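Per the submitters' processing notes, demultiplexing used bcl2fastq 2.17, and HISAT (mm10) and featureCounts gave alignments and counts; strand setting and annotation are not given in the sources used here. The deposited values are TPM per gene, and the 12 files of single libraries equal the series table. Per the file headers, that table also holds the authors' edgeR comparison: a log2 fold change and log2 CPM, an F statistic (a score), and a p-value with its false discovery rate.

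The 16164 genes that reached 0.5 TPM in 5 or more libraries were fitted on log2(TPM + 0.5) with limma 3.58.1 (lmFit, eBayes with a trend, R 4.3.3), ablated minus control and two-sided, with Benjamini-Hochberg adjustment over all genes tested. Members below the minimum take their values from a fit with no minimum (22842 genes). The fit was also run on simulated reads, with the same relative spread for all genes and for both groups. The members do not share that setting, so the run says nothing of the error of their values. Whole reads were recovered from the TPM of all 22842 genes above 0, within 0.05 read of a whole number, and served for depth, exact Poisson intervals and voom. Correlations used 100000 permutations of the libraries (Python 3.11.15, SciPy 1.17.1).

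The members and the 11 gene lists were chosen with earlier results of these data known. Named are all members, up to 4 called or else the 3 genes of smallest p of each list, and the 8 genes most like the CD3 chains. A gene that this rule names is not reported here. Other settings varied the constant (0.1 or 1), the minimum (1 TPM or none), the scaling, the variance model, the covariates, the unit and the libraries. Chosen after seeing the data were the pair of libraries left out together, the reference gene and ratios within the CD3 chains and Lck, the promoters shown, and the genes kept when a library is left out: these are the genes of the fit on all libraries, after the minimum had first been applied anew to the libraries left, and both versions are given. Gzma to Gzmb, planned as a ratio, was computed inverted because Gzma is 0 in 1 library. A planned search of the CD3 proteins for signalling motifs was not run.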

Additional observations from a re-analysis of the deposited data

Results flagged for a closer look

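Among the 20 sets of values examined (10 members in 2 groups), 8 values lay apart from the rest of their group, by a gap that is large against the group's whole range (Dixon's test at the 95% level). The test's chance rate, about 1 such value in 20 sets, holds only for normally distributed and independent sets. Here the test was applied to TPM at low read counts and not on the log scale of the fits. All 8 values are high ones, and the sets share libraries and are not independent. The 8 are therefore given as a description, and their number cannot be weighed against chance. Of the 8, 6 belong to ablated 3: Cd3d at 4.62 TPM, with the next ablated library at 0.9996 TPM, Cd3g at 6.95 TPM (next 2.27), Cd247 at 0.833 TPM (next 0.252), Cd4 at 3.05 TPM (next 1.39), Cd8a at 1.74 TPM (next 0.618) and Gzmb at 1.97 TPM (next 0.644). The seventh is Cd3e in ablated 1, at 3.86 TPM with the next ablated library at 1.56 TPM. The last is a control: Cd4 in control 4, at 2.62 TPM with the next control at 1.63 TPM.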

How the results depend on the processing

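No member was called in any of the 27 other settings chosen at the outset, and 1, Lck, was called when ablated 1 and ablated 3 were left out together (log2 fold change -0.79), a pair chosen after the data were seen. Of 272 fold changes of members under the alternatives, 249 kept their sign and stayed uncalled, 22 changed sign, and 1, that of Lck, kept its sign and passed. With the B cell and follicle score as a covariate, Cd3d was 0.077, Cd247 0.16, Cd4 0.038, Cd8a 0.12, Lck 0.17 and Gzmb 0.46 (also Srgn 0.036 and Lyz2 0.0051). Cd3e was -0.059 with the constant 0.1, -0.35 with a weight per library and -0.32 with voom. Gzmb was 0.0017 with the constant 1, 0.12 with quantile normalization and 0.0081 with the smooth muscle score, and Serpinb9 was 0.00047 with a weight per library. Leaving out single libraries or the pair took Cd3e from -0.37 to 0.25, Gzmb from -0.31 to 0.12, Cd8b1 from -0.036 to 0.31 and Lck from -0.79 to -0.20.

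The count over all genes, 231, was 349 with no minimum, 1092 with a weight per library, 917 with the epithelium score, 150 with the B cell and follicle score and 693 with the mitochondrial share; the cause was not tested. It was 128 to 328 with 1 library left out, lowest without control 2 (128) and control 3 (137). These fits keep the genes tested on all libraries, a choice made after the counts of both versions were seen. With the minimum applied anew to the libraries left, the count was 80 to 329: 135, 83, 80, 124 and 114 without control 1 to 5, with 6 to 8 members tested, 0 of them called, and 1 called without the pair. With no minimum 0 plasma cell genes were called. Among named genes not called on all libraries, Car1 passed in 6 of 28 other settings (adjusted p 0.0117 to 0.0408) and Cd79a in 3. Ms4a1, Slc26a3, Cxcl13, Tcf7 and Klrd1 each passed in 1, at 0.0479 without ablated 3, 0.0282 and 0.0332 with a weight per library, 0.0446 with the epithelium score and 0.0385 without the pair.

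The replicate block, the library number as a block, gave 84 genes over all, 0 members and Gzmb at 0.051. The numbers do not pair the libraries: deviations of same-numbered libraries correlated at 0.009, 0.359, -0.269, 0.203 and 0.162, and 1 of 5 controls correlated best with its own number. At these depths Cd8b1, Gzma and Gzmb rest on 66, 105 and 117 reads in all, which limits what could be detected.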
